A study of Mus musculus with 8 samples.

Results

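The genes described here are the PPAR and RXR nuclear receptors, the PGC-1 coactivators and direct targets of PPAR, taken by name from a table of 23100 genes. All 10 were present: the PPAR genes Pparg, Ppara and Ppard, the RXR genes Rxra, Rxrb and Rxrg, the coactivator genes Ppargc1a and Ppargc1b, and the target genes Cpt1a and Pdk4. They were followed in Min6 cells, a beta cell line from a mouse insulinoma, that had received either pRK5-Zac1, a plasmid for the zinc finger transcription factor Zac1 (gene Plagl1), or the control plasmid pRK5-NLSeGFP, which gives a green fluorescent protein sent to the nucleus. RNA was taken 16 h after the lipid transfection for 4 libraries per group, numbered 1, 2, 3 and 5 in both groups and called biological replicates in the series' design text. The labels name no sorting step and no share of transfected cells, so each value averages over cells that took up the plasmid and cells that did not, and a change in the number of expressing cells cannot be told apart from a change in RNA per cell.

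PPARs are nuclear receptors that bind fatty acids and their derivatives and act as heterodimers with an RXR partner on a direct repeat of a short DNA motif. The alpha form is best known for the fasting response of the liver and the burning of fatty acids, the gamma form for fat cell formation and lipid storage, and the delta form for a broad role in fat oxidation in many tissues, the beta cell among them. PGC-1 coactivators are recruited to these receptors and raise transcription of mitochondrial and fat-burning genes. Of the targets, Cpt1a encodes the enzyme that controls the entry of long-chain fatty acids into mitochondria, and Pdk4 a kinase that shuts down pyruvate dehydrogenase and so spares glucose.

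The promoters of the induced receptors are shown because the gene counts do not say which start site was used, together with that of Cpt1a, the better expressed of the targets. Each line holds the 250 bases before an annotated start on the plus strand, from RefSeq on GRCm38.p6, which is not the build of the deposited counts. Capitals mark the nuclear receptor motif AGGTCA, read on either strand.
Pparg start 1, chr6:115360894-115361143: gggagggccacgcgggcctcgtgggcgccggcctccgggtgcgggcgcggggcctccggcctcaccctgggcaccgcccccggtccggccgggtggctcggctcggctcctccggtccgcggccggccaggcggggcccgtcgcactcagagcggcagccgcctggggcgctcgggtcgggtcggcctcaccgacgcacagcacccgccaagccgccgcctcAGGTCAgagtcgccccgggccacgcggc
Pparg start 2, chr6:115362099-115362348: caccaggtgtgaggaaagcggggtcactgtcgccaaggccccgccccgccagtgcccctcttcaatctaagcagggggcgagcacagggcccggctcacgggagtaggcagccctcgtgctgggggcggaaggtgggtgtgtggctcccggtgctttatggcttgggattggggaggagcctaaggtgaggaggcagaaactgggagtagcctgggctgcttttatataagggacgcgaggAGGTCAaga
Pparg start 3, chr6:115421816-115422065: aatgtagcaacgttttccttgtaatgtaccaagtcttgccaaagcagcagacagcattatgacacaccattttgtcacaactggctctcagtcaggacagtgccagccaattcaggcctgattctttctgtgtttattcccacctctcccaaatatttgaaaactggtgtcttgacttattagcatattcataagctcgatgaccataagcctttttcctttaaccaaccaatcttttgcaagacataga
Ppara start, chr15:85735526-85735775: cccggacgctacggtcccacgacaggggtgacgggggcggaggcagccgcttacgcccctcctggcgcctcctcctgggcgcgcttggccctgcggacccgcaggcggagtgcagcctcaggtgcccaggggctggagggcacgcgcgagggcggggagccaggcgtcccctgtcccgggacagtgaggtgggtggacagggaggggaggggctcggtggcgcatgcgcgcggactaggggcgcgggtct
Cpt1a start, chr19:3323051-3323300: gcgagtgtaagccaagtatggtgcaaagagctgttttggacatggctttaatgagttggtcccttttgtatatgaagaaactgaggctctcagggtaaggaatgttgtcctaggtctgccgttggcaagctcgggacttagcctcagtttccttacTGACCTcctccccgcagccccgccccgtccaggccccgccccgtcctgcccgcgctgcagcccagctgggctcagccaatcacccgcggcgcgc

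The search covered the RefSeq windows from 250 bases before to 50 after each start, on both strands, and 9 of the 10 genes had at least 1 window, Ppargc1b being the exception. The motif AGGTCA lay in the windows of Pparg starts 1 and 2 and of Cpt1a, and also in 1 of the 2 windows each of Rxra and Rxrg, while 16.3% of all 32851 windows hold it. The complete PPAR-RXR repeat AGGTCANAGGTCA, which contains that motif, was in none of the members' windows and in 0.0396% of all windows. The motif GGGGGGCCCC, a sequence known to be bound by Zac1, was in none of them and in 0.0852% of all windows, and its core GGGGCCCC was in none and in 1.08%. The windows differ in composition: Pparg start 1 has 80.3% G and C, the Ppara start 74.7%, and Pparg start 3 only 40.3%.

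Library totals ran from 30.5 to 42.4 M counts. Plagl1, the transfected gene, stood at 67.7 to 85.4 CPM (counts scaled per M of a library's TMM-adjusted total) in the control libraries and at 5788, 4249, 4119 and 4370 CPM in Zac1 libraries 1, 2, 3 and 5, in which plasmid and endogenous transcripts are counted together. All 15 beta cell markers were tested and 0 passed the test (edgeR; 0 with DESeq2 and limma-voom, and 0 at an unadjusted p under 0.05), and their summed level was 61993 to 78358 CPM in the control and 64341 to 71623 CPM in the Zac1 libraries. Of the 10 fat cell markers only Lipe and Ucp1 had enough counts to be tested and 0 passed (0 in each tool, and 0 at an unadjusted p under 0.05). Of the 8 fat cell markers too low to test, the hormone gene Adipoq had 11 counts in the control and 8 in the Zac1 libraries together, the droplet coat gene Plin1 had 1 and 9, and Cidec, of droplet fusion, had 4 and 13. The others were Retn with 15 and 11, Lep with 11 and 6, Fabp4 with 24 and 28, Cfd with 1 and 2, and Car3 with 1 and 3. These counts are not scaled to library totals. The summed level of the fat cell markers was 6.15 to 7.38 CPM in the control and 5.11 to 7.83 CPM in the Zac1 libraries. Hepatocyte, fibroblast, macrophage and endothelial markers gave 0 calls among 4, 2, 2 and 1 tested genes (0 in each tool, and 0 at an unadjusted p under 0.05). Among striated muscle markers 1 of 3 tested genes, the creatine kinase gene Ckm, was higher, from 6 counts in the control to 206 in the Zac1 libraries. Among all tested genes 2.15% were called higher. Ckm stood at no more than 0.0853 CPM in any control library, below the level of the low-count filter (0.287 CPM). It could be tested only because it was higher with Zac1. The summed level of the 8 muscle markers was 1.02 to 1.77 CPM in the control and 2.22 to 3.28 CPM in the Zac1 libraries. Without Ckm the other 7 summed to 0.965 to 1.73 CPM and 1.19 to 1.94 CPM, which overlap.

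Of the receptors, Pparg and Ppara rose in the Zac1 libraries, and the other tested receptors did not pass the test. Both started from low levels. Pparg (gene ID 19016), the receptor of fat cell formation, had 1.08, 1.25, 1.07 and 0.916 CPM in control libraries 1, 2, 3 and 5, and 2.96, 2.61, 1.98 and 2.93 CPM in the Zac1 libraries of the same numbers. Every Zac1 library lay above every control library, and Zac1 library 3 was the lowest of its group. The means were 1.08 ± 0.137 and 2.62 ± 0.459 CPM (SD, n = 4), a log2 difference of 1.27 ± 0.18 (SE; edgeR adjusted p = 0.000619), which is 2.42-fold with a 95% interval from 1.85 to 3.16.

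Ppara (gene ID 19013), the receptor of the fasting response, had 5, 8, 8 and 4 counts in the control libraries and 32, 25, 20 and 39 counts in the Zac1 libraries. On the CPM scale these were 0.146, 0.227, 0.251 and 0.131 against 0.765, 0.709, 0.482 and 0.922. The groups did not overlap, and the lowest Zac1 library was again library 3. The means were 0.189 ± 0.0593 and 0.72 ± 0.182 CPM (SD, n = 4), a log2 difference of 1.91 ± 0.33 (SE; edgeR adjusted p = 0.0036), or 3.75-fold with a 95% interval from 2.3 to 6.11. No control library of Ppara reached the level that the low-count filter asks for (0.287 CPM), so this gene could be tested only because it was higher with Zac1.

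For both genes an exact permutation test on the log2(CPM + 0.5) scale, two-sided, gave p = 0.0286, the smallest value that the 70 assignments of 8 libraries to groups allow. Any gene whose groups do not overlap gives this value. Among all tested genes 2.15% were called higher, and in 4.39% every Zac1 library lay above every control library (5.79% had groups apart in either direction). These stand beside 2 called among the 9 tested members. Among tested genes with a control mean from 0.1 to 2 CPM, a range chosen after the levels of Pparg and Ppara were seen, 6.94% of 2550 were called higher. Part of this range lies below the level of the low-count filter, 0.287 CPM. Genes in that part needed Zac1 libraries at the filter level to be tested, which can raise the share called higher.

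**Figure D1:**
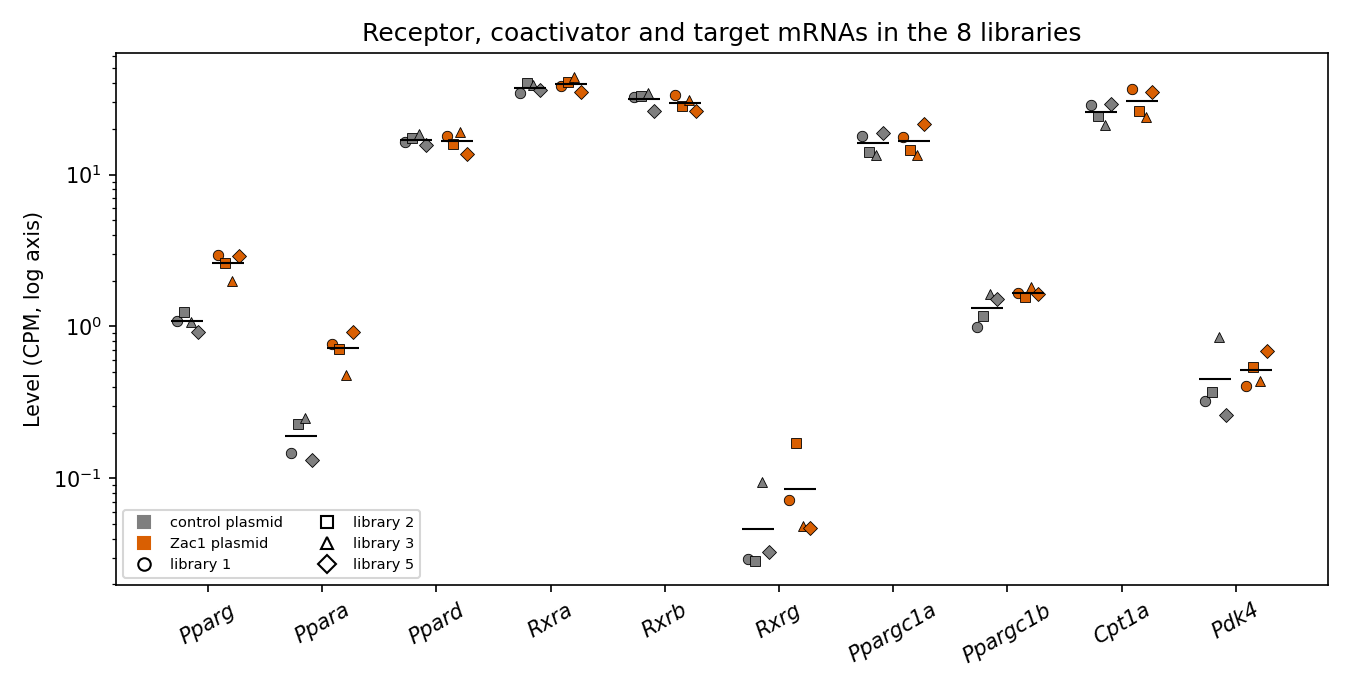
Level of each gene in each library, in CPM on a log axis, with grey symbols for control and orange for Zac1 libraries, symbol shapes for library numbers and lines for group means. Pparg and Ppara are the only genes of the 10 whose groups do not overlap, and both lie below 3 CPM in every library.

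Ppard, the broadly expressed form, was the most abundant PPAR transcript. It had 16.4, 17.5, 18.4 and 15.6 CPM in control libraries 1, 2, 3 and 5 and 18, 15.9, 19.2 and 13.6 CPM in the Zac1 libraries. The groups overlapped, and library 5 was the lowest of both. The log2 difference was -0.03 ± 0.10 (SE; edgeR adjusted p = 0.984), with a 95% interval from 0.845- to 1.14-fold.

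The RXR partners are shared by PPARs and by many other nuclear receptors. Rxra had 34.7, 40.2, 38.8 and 36 CPM in the control and 38.1, 40.5, 43.8 and 34.8 CPM in the Zac1 libraries. Rxrb had 32.5, 33.1, 34.4 and 26.2 CPM in the control and 33.5, 28.1, 31 and 26.1 CPM in the Zac1 libraries. In both genes the groups overlapped, and library 5 gave the lowest Rxrb value of each group. The difference in Rxra was 0.07 ± 0.07 on the log2 scale (SE; edgeR adjusted p = 0.95; 95% interval 0.941- to 1.17-fold). For Rxrb it was -0.09 ± 0.09 (SE; edgeR adjusted p = 0.949; 95% interval 0.819- to 1.08-fold). Rxrg, the form typical of muscle and brain, had 6 counts in the control and 13 in the Zac1 libraries together, at 1 to 6 counts per library, and was too low to be tested.

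**Figure D2:**
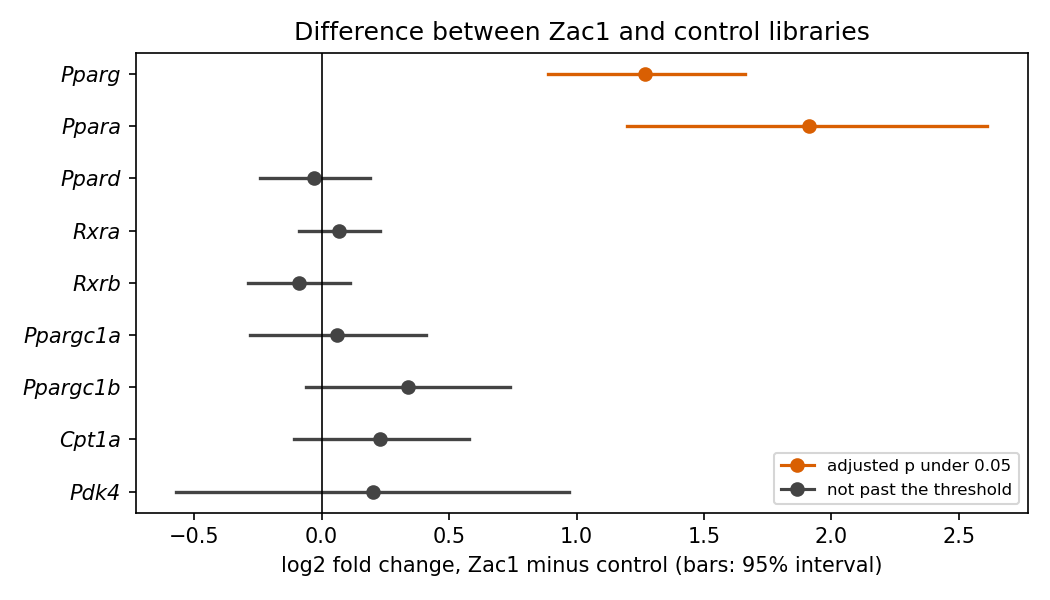
Log2 difference (Zac1 minus control) of the 9 genes with enough counts to be tested, with 95% intervals from the edgeR fit. The intervals of Pparg and Ppara lie above 0, and those of the other 7 include 0.

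Levels of different genes were compared as CPM per kb of exon, with exon lengths from GENCODE M21, an annotation of another build than the counts. In the control libraries Rxrb was first at 10.9 ± 1.26 CPM per kb (SD, n = 4), then Rxra at 7.33 ± 0.494, Cpt1a at 6.01 ± 0.889, Ppard at 5.19 ± 0.369 and Ppargc1a at 2.48 ± 0.427. Well below them came Pparg at 0.454 ± 0.0575, Ppargc1b at 0.355 ± 0.0791, Pdk4 at 0.129 ± 0.0771, Ppara at 0.0534 ± 0.0168 and Rxrg at 0.0201 ± 0.014 CPM per kb. The ranges of Cpt1a and Ppard, of Pparg and Ppargc1b, and of Ppara and Rxrg overlapped, so the order within these pairs is within their spread. In the Zac1 libraries Pparg stood at 1.1 ± 0.193 CPM per kb, clear of Ppargc1b at 0.447 ± 0.0309. Ppara stood at 0.203 ± 0.0515, in the same range as Pdk4 at 0.148 ± 0.0364. Rxra, at 7.7 ± 0.743, and Cpt1a, at 7.05 ± 1.46, overlapped there.

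The make-up of the PPAR transcripts shifted while their sum moved little. The sum of Ppara, Pparg and Ppard was 5.69 ± 0.422 CPM per kb (SD, n = 4) in the control and 6.39 ± 0.621 in the Zac1 libraries, with overlapping ranges (5.2 to 6.14 and 5.63 to 6.96). Pparg made up 8.26%, 8.86%, 7.32% and 7.42% of this sum in control libraries 1, 2, 3 and 5, and 17.9%, 17.9%, 12.2% and 21.9% in the Zac1 libraries. Ppara made up 0.712% to 1.16% in the control and 2% to 4.63% in the Zac1 libraries. Ppard remained the largest part in every library, at 90.1% to 91.9% in the control and 73.5% to 85.8% in the Zac1 libraries. These shares are given as a description, without a test, since they follow from the changes in Pparg and Ppara. The RXR sum was 18.3 ± 1.57 and 18 ± 1.58 CPM per kb, of which Rxrb made up 54.8% to 62.2% over all 8 libraries.

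**Figure D3:**
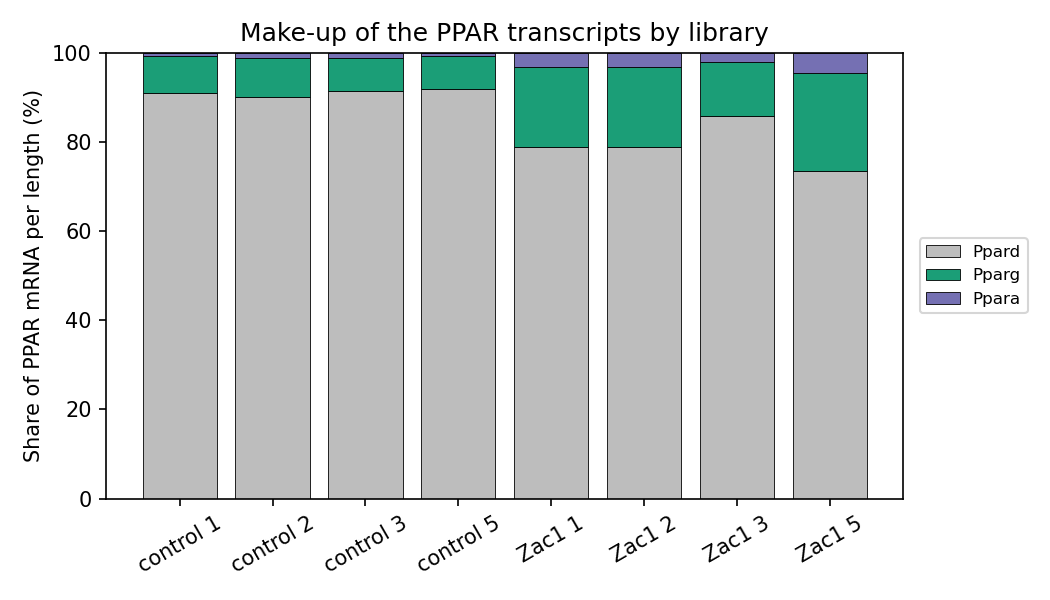
Share of Ppard, Pparg and Ppara in the summed PPAR mRNA of each library, in percent of CPM per kb of exon. Ppard makes up at least 90.1% in the control libraries and at most 85.8% in the Zac1 libraries, with library 3 the closest of the Zac1 libraries to the controls.

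The coactivators did not pass the test. Ppargc1a, which encodes PGC-1 alpha, had 18, 14, 13.4 and 18.8 CPM in control libraries 1, 2, 3 and 5 and 17.6, 14.5, 13.5 and 21.4 CPM in the Zac1 libraries. Libraries 1 and 5 were the higher ones in both groups, and the groups overlapped. The log2 difference was 0.06 ± 0.16 (SE; edgeR adjusted p = 0.98; 95% interval 0.822- to 1.33-fold). Ppargc1b, which encodes PGC-1 beta, had 0.995, 1.17, 1.63 and 1.51 CPM in the control and 1.65, 1.56, 1.83 and 1.63 CPM in the Zac1 libraries. The groups overlapped through control library 3. The log2 difference was 0.34 ± 0.18 (SE; edgeR adjusted p = 0.766), and its 95% interval, 0.962- to 1.66-fold, leaves room for a rise of over 1.5-fold.

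The study design allows the question whether the targets of PPAR rose together with the receptors. Neither of the chosen targets passed the test. Cpt1a had 28.9, 24.4, 21.3 and 29.3 CPM in control libraries 1, 2, 3 and 5 and 36.6, 26.1, 24 and 35 CPM in the Zac1 libraries. Zac1 libraries 1 and 5 lay above all controls, Zac1 libraries 2 and 3 lay among them, and libraries 1 and 5 were the higher ones in both groups, as for Ppargc1a. Under every number the Zac1 library lay above the control library of that number. The means were 25.9 ± 3.84 and 30.4 ± 6.31 CPM (SD, n = 4), a log2 difference of 0.23 ± 0.15 (SE; edgeR adjusted p = 0.866; 95% interval 0.925- to 1.49-fold). A fit with the library number as a block called Cpt1a higher (log2 0.22, edgeR adjusted p = 0.0138), as it did 4.38% of all tested genes in either direction; the labels do not say that the numbers pair the libraries.

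Pdk4 was low in every library, with 11, 13, 27 and 8 counts in control libraries 1, 2, 3 and 5 and 17, 19, 18 and 29 counts in the Zac1 libraries. Control library 3, at 0.848 CPM, lay above all 4 Zac1 libraries, which had 0.406 to 0.686 CPM, and the other controls lay at 0.262 to 0.37 CPM. The log2 difference was 0.20 ± 0.36 (SE; edgeR adjusted p = 0.972), and the 95% interval, 0.675- to 1.96-fold, leaves changes of over 1.4-fold in either direction possible.

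Beyond these, 5 lists of PPAR target genes held 123 genes, of which 92 could be tested. Of these 92, 2 were called higher and 0 lower (edgeR; 2 and 0 with DESeq2 and with limma-voom; 4 higher and 0 lower at an unadjusted p under 0.05), against 2.15% called higher and 0.0349% called lower among all tested genes. Their median log2 difference was -0.006, beside -0.009 for all tested genes. In 73 of the 92 the 95% interval lay wholly within 1.5-fold in either direction (79.3%, against 82.3% of all tested genes). The remaining 31 genes were too low to be tested in either group, at no more than 0.503 CPM in any library, and 6 of them had no count at all. The lists were chosen with earlier results of these data known and are described without a test of the list.

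Genes of mitochondrial fatty acid oxidation did not pass the test. All 22 were tested, and 0 were called in edgeR, DESeq2 or limma-voom, with 0 at an unadjusted p under 0.05 in edgeR. Of all tested genes edgeR called 2.18% in either direction, a share at which a list of 22 can give 0 calls. The upper bound of the 95% interval was below 1.5-fold in 22 of 22, beside 12665 of all 14331 tested genes. For Cpt1a that bound was 1.49-fold. The median log2 difference was -0.01. Hadha, a subunit of the trifunctional protein of beta oxidation, stood at 124 ± 3.53 CPM in the control and 123 ± 5.26 in the Zac1 libraries (SD, n = 4). Etfa, which passes electrons from this pathway to the respiratory chain, stood at 106 ± 4.92 and 103 ± 3.58 CPM. The highest difference of the list was that of Cpt1a itself, and the lowest, -0.41 ± 0.33 (log2, SE), was that of Cpt1b, the muscle form of the same enzyme, at 0.374 and 0.281 CPM.

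Peroxisomal fatty acid oxidation gave 0 calls among 15 tested of 20 genes in each of the 3 tools, with 0 at an unadjusted p under 0.05 in edgeR and a median log2 difference of -0.01. In edgeR 2.18% of all tested genes were called in either direction, so 0 of 15 is near that share. The peroxisomal lipid carrier gene Scp2 stood at 188 ± 5.92 CPM in the control and 181 ± 6.72 in the Zac1 libraries (SD, n = 4). The fatty acid importer gene Abcd3 stood at 150 ± 5.64 and 150 ± 8.19 CPM.

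Genes for fatty acid uptake, binding and activation gave 0 calls among 15 tested of 22 in each tool, with 1 higher and 0 lower at an unadjusted p under 0.05 in edgeR and a median of 0.02. The share called over all tested genes in edgeR was 2.18% in either direction. The acyl-CoA synthetase genes Acsl5 and Acsl4 differed by log2 -0.05 ± 0.06 and -0.04 ± 0.06 (SE). The gene with the low unadjusted p was Fabp3, a fatty acid binding protein of heart and muscle, chosen after its values were seen. It had 1.64, 2.22, 2.14 and 1.7 CPM in control libraries 1, 2, 3 and 5 and 3.56, 2.18, 2.53 and 3.24 CPM in the Zac1 libraries. Zac1 library 2 lay among the controls, and the log2 difference of 0.58 ± 0.18 (SE) was not past the threshold. Angptl4, a secreted inhibitor of lipoprotein lipase and a textbook PPAR target, was also looked up after the fact: it had 9 counts in the control and 1 in the Zac1 libraries together and could not be tested. The other untested genes of the list did not fall. In control and Zac1 counts, Fabp2 had 8 and 18, Slc27a5 18 and 22, Slc27a2 0 and 5, and Fabp4 24 and 28. Fabp1 and Acot1 had no counts. These counts are not scaled to library totals.

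Lipid droplet and lipolysis genes gave 0 calls among 17 tested of 23 in each tool, with 1 higher and 0 lower at an unadjusted p under 0.05 in edgeR and a median of 0.02. Over all tested genes edgeR called 2.18% in either direction. Plin2, the droplet coat protein that is commonly used as a readout of PPAR activity, stood at 21.1 ± 1.71 CPM in the control and 22.8 ± 2.47 in the Zac1 libraries (SD, n = 4), a log2 difference of 0.10 ± 0.08 (SE). Abhd5, an activator of lipolysis, gave -0.10 ± 0.07. The gene with the low unadjusted p was the coat protein gene Plin3, chosen after its values were seen, at 0.42 ± 0.17.

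The 2 calls among target genes came from the last list, of other reported targets, in which 23 of 36 genes were tested and the median was -0.04. Among all tested genes 2.15% were called higher. Txnip encodes an inhibitor of thioredoxin that is known in beta cells mainly as a glucose-induced gene. It had 30.4, 32.5, 30.6 and 31.6 CPM in control libraries 1, 2, 3 and 5 and 43.8, 40.6, 37.5 and 44.3 CPM in the Zac1 libraries. The groups did not overlap, Zac1 library 3 was again the lowest of its group, and the difference was 1.33-fold (log2 0.41 ± 0.06, SE; edgeR adjusted p = 0.00126). Klf10, a zinc finger repressor first known as an early response gene of TGF-beta, had 18.4 to 22.1 CPM in the control and 24 to 28 CPM in the Zac1 libraries, a 1.24-fold rise (log2 0.32 ± 0.07, SE; edgeR adjusted p = 0.0385). The call of Klf10 was lost without control library 1 or 2 or any 1 of the Zac1 libraries (edgeR adjusted p = 0.0587 to 0.133), which leaves 1 call in the target lists.

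**Figure D4:**
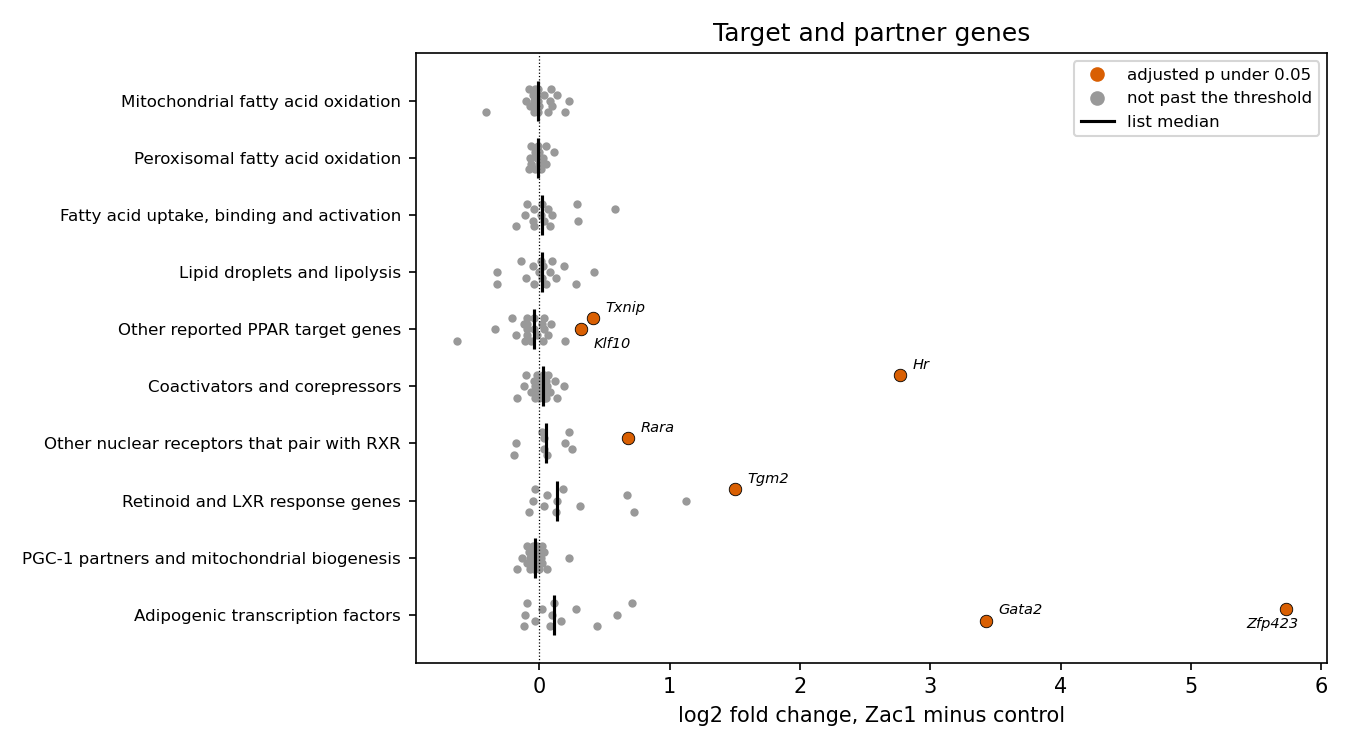
Log2 difference (Zac1 minus control) of each tested gene in 10 lists of PPAR targets and partners, with lines for list medians and orange points for genes past the threshold; the position of Zfp423 is the fitted value from 3 control counts. The 5 target lists at the top are centred near 0, with Txnip and Klf10 as their 2 called genes.

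Among the genes that work alongside these receptors, 88 could be tested in 5 further lists, and 5 were called higher and 0 lower (edgeR; 5 and 0 with DESeq2, 4 and 0 with limma-voom; 12 higher and 0 lower at an unadjusted p under 0.05). Among all 14331 tested genes 2.15% were called higher, and 810 were higher and 277 lower at an unadjusted p under 0.05. Of 28 coactivators and corepressors 1 was called: Hr, a corepressor of the thyroid hormone, vitamin D and retinoid-related orphan receptors. Hr had 0.995, 0.91, 0.848 and 0.949 CPM in control libraries 1, 2, 3 and 5 and 5.19, 6.53, 6.19 and 7.36 CPM in the Zac1 libraries. Here library 1, not library 3, was the lowest of the Zac1 group. The corepressor of unliganded receptors Ncor1 stood at 433 ± 25.3 and 431 ± 13.3 CPM, and the arginine methyltransferase gene Prmt1 at 384 ± 53.8 and 353 ± 20.7 CPM (SD, n = 4). The median of the list was 0.03 on the log2 scale.

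Of the other nuclear receptors that pair with RXR, 10 of 13 were tested and 1 was called higher, beside 2.15% of all tested genes. At an unadjusted p under 0.05 in edgeR 2 were higher and 0 lower, beside 810 and 277 of all 14331. Rara, a receptor for retinoic acid, had 2.31, 1.9, 1.82 and 1.83 CPM in control libraries 1, 2, 3 and 5 and 2.82, 3.49, 3.64 and 2.67 CPM in the Zac1 libraries. The groups did not overlap, and control library 1 stood apart from the other controls. The rise was 1.6-fold (log2 0.68 ± 0.15, SE; edgeR adjusted p = 0.0299). The call was lost with limma-voom (adjusted p = 0.0546), and in edgeR without control library 2, 3 or 5 or without Zac1 library 2 or 3 (adjusted p = 0.0747 to 0.125). The thyroid hormone receptor gene Thra stood at 25.8 ± 2.83 and 26.5 ± 3.49 CPM (SD, n = 4). Nr4a2, an orphan receptor induced early after stimulation, differed by log2 0.20 ± 0.09 (SE) and was not past the threshold.

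Response genes of retinoic acid and of LXR, the oxysterol receptor, were read as outputs of the other RXR pairs. Of 22 genes 13 were tested, with a median of 0.14, and 1 was called higher, beside 2.15% of all tested genes (3 higher and 0 lower at an unadjusted p under 0.05, beside 810 and 277 of all 14331). Tgm2, a protein cross-linking enzyme induced by retinoic acid, had 5, 9, 11 and 10 counts in control libraries 1, 2, 3 and 5 and 35, 29, 37 and 21 counts in the Zac1 libraries. Only 2 of the 4 control libraries reached the level of the low-count filter, so Tgm2 too entered the test through its higher Zac1 values. The groups did not overlap, and the rise was 2.83-fold (log2 1.5 ± 0.32, SE; edgeR adjusted p = 0.017). Leaving out control library 1 or 2, or else Zac1 library 2 or 3, ended the call (adjusted p = 0.0545 to 0.0657 in edgeR). Crabp2, a carrier of retinoic acid chosen after its values were seen, had 0.994 ± 0.216 and 1.59 ± 0.142 CPM (SD, n = 4) and was not past the threshold (edgeR adjusted p = 0.131), except with the library number as a block (adjusted p = 0.038). The LXR targets Abcg1 and Srebf1 differed by -0.05 ± 0.06 and -0.08 ± 0.17 on the log2 scale (SE).

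PGC-1 partners and genes of mitochondrial biogenesis gave 0 calls among 22 tested of 23 genes in each tool, with 0 at an unadjusted p under 0.05 in edgeR and a median of -0.03. Across all tested genes 2.18% were called in either direction in edgeR. Atp5b, a subunit of ATP synthase, stood at 1063 ± 34.4 CPM in the control and 1024 ± 37.8 in the Zac1 libraries, and cytochrome c, Cycs, at 441 ± 22.6 and 428 ± 41.6 CPM (SD, n = 4).

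Adipogenic transcription factors had 2 of 15 tested members called higher, of 22 in the list, with a median of 0.11 and 5 higher and 0 lower at an unadjusted p under 0.05. Of all tested genes 2.15% were called higher, and 810 of 14331 were higher at an unadjusted p under 0.05. The 6.94% called higher among genes with a control mean from 0.1 to 2 CPM does not cover the 2 called genes. Their control means lay below that range, at 0.0239 CPM for Zfp423 and 0.0969 CPM for Gata2. Zfp423, which commits precursor cells to the fat lineage and acts upstream of Pparg there, had 0, 0, 2 and 1 counts in control libraries 1, 2, 3 and 5 and 68, 43, 55 and 58 counts in the Zac1 libraries. Its ratio was 61.2, with an exact 95% counting interval from 20.7 to 299 (edgeR adjusted p = 2.79e-06). Gata2, which restrains the step from precursor to fat cell, had 6, 3, 3 and 1 counts in the control and 35, 38, 37 and 67 counts in the Zac1 libraries, 10.8 times the control level after scaling (log2 3.43 ± 0.39, SE; adjusted p = 9.73e-05 in edgeR). Both genes passed the low-count filter through the Zac1 libraries, so they could be tested only because they were higher there. Cebpa, the partner of Pparg in fat cells, was looked up after the fact and was too low to be tested. It had 7 counts in the control and 53 in the Zac1 libraries together, and its groups overlapped in CPM. The other untested genes of the list went both ways. In control and Zac1 counts, Gata3 had 2 and 8, Klf2 21 and 17, and Tcf7l1 15 and 13. Ebf1 had 15 and 7, Ebf2 10 and 5, and Klf15 5 and 1. These counts are not scaled to library totals.

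Over the 8 libraries, the patterns most like that of Pparg among 12212 genes averaging 50 counts or more were those of Mapk12 (Pearson r = 0.99), Txnip (0.984) and Lrig1 (0.978), and those most like Ppara were Lrig1 (0.977), Txnip (0.975) and Ltk (0.975). The values are across libraries that fall into the 2 groups, so any gene that separates the groups scores high, and they are given as a description. Mapk12, a p38 kinase of muscle, had 8.43, 8.02, 7.66 and 7.07 CPM in control libraries 1, 2, 3 and 5 and 13.1, 11.9, 10.4 and 13.1 CPM in the Zac1 libraries. As for Pparg and Ppara, the lowest Zac1 library was library 3, which also had the lowest level of Plagl1 in its group. Plagl1 stood at 5788, 4249, 4119 and 4370 CPM in Zac1 libraries 1, 2, 3 and 5. Pparg was highest in Zac1 library 1, at 2.96 CPM, and Ppara in Zac1 library 5, at 0.922 CPM. Whether the level of the plasmid moved with these genes was not tested over 4 libraries.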

How the data were processed

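The deposited values are unnormalized gene counts in 8 libraries (4 per group). Per the submitters' processing notes, the tools were HTSeq 0.6.1p1, Bowtie2 2.2.8, TopHat2 2.1.1, FastQC and bcl2fastq 2.17, with build mm9. For the gene annotation and the strand setting the sources used here give nothing. The kit was a stranded one, per the labels' protocols. No member overlaps another gene of the table in GENCODE M21.

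From these counts edgeR 4.0.16 (R 4.3.3) was run on the whole table: filterByExpr by group (14331 genes kept), TMM scaling, a robust quasi-likelihood fit and F test on group, and Benjamini-Hochberg adjustment over all tested genes with a threshold of 0.05. CPM use TMM-scaled totals. Fold changes are Zac1 minus control, with SE and 95% intervals from the F statistic. The counting interval of Zfp423 leaves out biological spread, and reads that lack molecular identifiers may be copies of 1 molecule. DESeq2 1.42.0, limma-voom (limma 3.58.1) and other settings were alternatives, and the scripts were tested on simulated data. Exact permutation tests used scipy 1.17.1.

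The members and lists were chosen with earlier results of these data known. Named were all members, and in each of 10 lists every called gene and, where fewer than 2 were called, the 2 most abundant tested genes, plus the 3 genes most like Pparg and Ppara. Marker lists for 7 cell types were checked as well.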

Additional observations from a re-analysis of the deposited data

Results flagged for a closer look

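With 33 genes checked in groups of 4 libraries (66 groups), 5 had a library far from the other 3, and chance flags about 1 in 20 groups. Control library 3 had 0.0942 CPM of Rxrg against 0.0284 to 0.0327 in the other controls, which is 3 counts against 1 count each. Zac1 library 3 had 171 CPM of Scp2 against 183 to 185 in the others. Zac1 library 5 had 283 CPM of Acsl5 against 248 to 252. Control library 3 had 464 CPM of Prmt1 against 352 to 366. Control library 1 had 2.31 CPM of Rara against 1.82 to 1.9, on the side of the Zac1 libraries.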

How the results depend on the processing

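Pparg and Ppara kept their direction and their call under every alternative in which they were tested. The log2 difference of Pparg ran from 1.15 to 1.39 (adjusted p up to 0.00432) and that of Ppara from 1.64 to 2.07 (adjusted p up to 0.0228). With a mean of at least 50 counts required, Ppara was not tested: 1 member was called, as were 2 genes in all lists and 1 in the target lists. Leaving out 1 library at a time gave 4 to 6 calls in all lists (7 with all libraries), with 4 without control library 2 or Zac1 library 2 or 3, and 1 to 2 in the target lists. Members not past the threshold changed sign in places. Ppard was at 0.03 and Pdk4 at -0.14 without both libraries numbered 5, while Pdk4 was at 0.69 without control library 3 (edgeR adjusted p = 0.803). Over the settings that leave out 1 library Ppard ran from -0.11 to 0.07 and Ppargc1a from -0.07 to 0.16. The cause was not tested. With the replicate number as a block, Cpt1a was also called (log2 0.22, edgeR adjusted p = 0.0138), as was Crabp2, which makes 3 members, 3 target genes and 9 genes in all lists, where the block calls 4.38% of all tested genes; without the block the adjusted p of Cpt1a ran from 0.574 to 0.999 over the alternatives. The numbers were not taken as pairs: deviations from the group means correlated at 0.4, 0.06, 0.23 and 0.43 for numbers 1, 2, 3 and 5, and number 2 falls short. For numbers 1, 3 and 5 the control and the Zac1 library of a number matched each other best in both directions, while control library 2 correlated better with Zac1 library 3 (0.13). The 12 correlations between different numbers ran from -0.4 to 0.13, with 8 below 0. Deviations within a group sum to 0, so values above 0 for equal numbers bring values below 0 for different numbers by construction. The values for equal numbers are a hint of shared deviations, from the data and not from the labels. Library totals in place of TMM and the fit without Plagl1 changed no call of a member. With a pseudocount of 0.1 the exact tests stayed on the same side of 0.05, with Pparg at 1.2 and Ppara at 1.5. For Pparg and Ppara the groups do not overlap, so the exact p could not change with the pseudocount. Depth limits Rxrg, Pdk4 and Ppara most: 3 counts are 0.0982 CPM in the shallowest library.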
